A study of Mus musculus with 14 samples.

Results

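Clone L is a line grown from a single sorted cell of the mouse mammary carcinoma line 4T1, and its DNA methylation is set here against that of 5 sister clones, E, I, K, P and T. Clone L was labelled non-intravasating, that is, poor at entering blood vessels in a pooled test, like clones I, K and P, whereas clones E and T were labelled intravasating. All 6 clones share the 4T1 origin and the culture medium, no agent was applied, and each is 1 line from 1 cell out of 23 that were established. Genomic DNA was bisulfite converted and sequenced in 2 rounds per clone, so 2 of the 14 libraries of the series belong to clone L, and 2 libraries of the uncloned parental line were not analysed here. The deposited tables hold 1 methylation level per clone, a fraction from 0 (no methylated cytosine) to 1, for each of 21965 gene promoters and each of 97247 autosomal hypomethylated regions (HMRs, stretches of low methylation). No read counts or coverage stand beside the levels, so how many reads each level rests on is unknown. The 2 rounds have no separate values, so every error given here is the spread among the 5 other clones, and clone L itself has no replicate.

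A promoter or HMR is called apart below when the level of clone L lay under those of all 5 other clones by at least 0.2, and apart above when it lay over all 5 by at least 0.2. By this rule 30 of 21965 promoters were apart below, which is 0.137% of promoters, and 7 were apart above, which is 0.0319%. Among autosomal HMRs, 849 were apart below (0.873%) and 380 were apart above (0.391%).

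Methylation of cytosine in CpG dinucleotides at a gene's start is commonly found where the gene is silent, and starts rich in CpG are mostly unmethylated in normal cells. Tumour cell lines tend to lose methylation in CpG-poor stretches and in late-replicating, gene-poor regions, while some CpG-rich starts gain it. In epithelial cells the miR-200 family represses the transcription factors Zeb1 and Zeb2 and so helps to keep the epithelial state. Its genes lie in a pair of clusters, Mir200c with Mir141 and Mir200b with Mir200a and Mir429. These are textbook facts and not results of the tables, which hold no RNA levels.

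The mature miRNAs of both clusters and miR-205, which also represses Zeb genes, are shown because the promoter of the Mir200c cluster gave one of the widest differences of clone L; the seed, bases 2 to 8 counted from the 5′ end, is in capitals.
miR-200c-3p: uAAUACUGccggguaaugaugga
miR-200b-3p: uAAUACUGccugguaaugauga
miR-429-3p: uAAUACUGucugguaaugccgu
miR-141-3p: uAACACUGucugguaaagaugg
miR-200a-3p: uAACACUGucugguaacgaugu
miR-205-5p: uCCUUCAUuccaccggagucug
The sequences are those of RefSeq on GRCm38.p6. miR-200c, miR-200b and miR-429 share 1 seed, miR-141 and miR-200a share another that differs from it by U4C (counted from the 5′ end, the base of miR-200c first), and miR-205 has a seed of its own. The Mir200c and Mir141 hairpins lie on the minus strand of chromosome 6 with 336 bases between them, at chr6:124718322-124718390 and chr6:124717914-124717985. Their promoters may therefore cover much of the same DNA and count as 1 observation.

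The Mir200c promoter was nearly unmethylated in clone L and partly methylated in each of the other clones. Its level was 0.0409 in clone L, against 0.522 in clone E, 0.286 in clone I, 0.665 in clone K, 0.683 in clone P and 0.520 in clone T. The Mir141 promoter had 0.0423 in clone L, against 0.508 in clone E, 0.264 in clone I, 0.621 in clone K, 0.613 in clone P and 0.50 in clone T. Clone I lay nearest to clone L at both promoters, clones E and T lay together above it, and clones K and P lay together above those. The mean difference at Mir200c was -0.494 (others 0.535 ± 0.159, SD over 5 clones), and limma across all promoters gave a Benjamini-Hochberg adjusted p of 0.261, so it did not pass 0.05. That adjusted p lay between 0.177 and 0.430 under the other alternatives except one: it was 0.0437 with promoters whose 6 levels, clone L included, span less than 0.1 left out before the fit.

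The other miR-200 cluster did not follow. The Mir200b promoter had 0.798 in clone L, against 0.662 in clone E, 0.690 in clone I, 0.712 in clone K, 0.704 in clone P and 0.634 in clone T. Mir429 stood at 0.814 in clone L and between 0.699 and 0.792 in the other clones. Both lay above all 5, whereas the level of Mir200a in clone L, 0.874, lay inside the range of 0.758 to 0.890. The Mir205 promoter again lay below, with 0.373 in clone L, against 0.739 in clone E, 0.641 in clone I, 0.497 in clone K, 0.621 in clone P and 0.486 in clone T. Its gap to clone T, the nearest, was 0.113, short of the 0.2 that defines apart.

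Among epithelial genes, the Rab25 promoter was apart below. Rab25 is a small GTPase of the recycling endosome of epithelial cells. Its level was 0.339 in clone L, against 0.560 in clone E, 0.583 in clone I, 0.588 in clone K, 0.540 in clone P and 0.576 in clone T. The 5 other clones spanned 0.0478, and clone L lay 0.201 below the lowest of them, which made Rab25 the promoter just inside the rule; Olfr827, with a gap of 0.1998, was just outside. The mean difference was -0.230 (others 0.569 ± 0.0195, SD over 5 clones; limma adjusted p = 0.198). The 250 bases before the RefSeq start of Rab25, at chr3:88548280-88548529 on the minus strand of GRCm38.p6, hold 8 CpG dinucleotides, shown in capitals.
Rab25: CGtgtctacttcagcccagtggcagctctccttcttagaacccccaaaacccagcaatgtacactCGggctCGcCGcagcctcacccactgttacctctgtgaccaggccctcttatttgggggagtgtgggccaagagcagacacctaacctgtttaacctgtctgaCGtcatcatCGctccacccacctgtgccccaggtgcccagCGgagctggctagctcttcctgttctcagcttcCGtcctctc
Of all 32851 RefSeq windows of this length, 43.0% hold 8 or more. The deposited table gives no promoter boundaries, so which of these CpG dinucleotides entered the level is not known.

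Other epithelial genes were mostly lower in clone L, and by less. Of 47 promoters of a list of epithelial genes, 21 lay below all 5 other clones (44.7%, against 35.9% of all promoters) and 1, Cldn3, lay above all 5. The list's median difference was -0.0243, against -0.0204 over all promoters. It was 0.0139 when each clone was centred on its own median, against 0.0178 over all promoters. Centring takes 1 value from all levels of a clone, so it raised every difference of clone L by the same amount. Centred medians therefore add nothing to the comparison of a list with all promoters. Promoters under 0.1 in the others differed by only -0.00173 on average, so centring tends to place clone L above the others there. On those centred levels 4 of the 47 lay below all 5 (8.51%, against 14.4% of all promoters) and 9 above (19.1%, against 32.4%). Krt19, a keratin of simple epithelia, had 0.368 in clone L and between 0.487 and 0.565 in the other clones. Krt8 had 0.0781 in clone L and between 0.0900 and 0.239 in the others. Krt18 had 0.268 in clone L, inside a range of 0.172 to 0.287. Cldn4, a tight-junction claudin, had 0.0126 in clone L and between 0.0624 and 0.256 in the others. Cdh1, the epithelial cadherin and a direct target of Zeb1, had 0.0375 in clone L and between 0.0702 and 0.120 in the others. The claudin gene Cldn3 stood at 0.298 in clone L and between 0.0902 and 0.268 in the others. None of the 47 passed limma.

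In mesenchymal genes fewer promoters were lowest in clone L. Of 38 promoters of a mesenchymal list, 10 lay below all 5 other clones (26.3%, against 35.9% of all promoters) and 5 above (13.2%, against 7.48%). The median difference was -0.0104, against -0.0204 over all, and 0.0278 on centred levels, against 0.0178 over all. On centred levels 2 lay below all 5 (5.26%, against 14.4%) and 19 above (50.0%, against 32.4%). Zeb1 was methylated in all clones, at 0.936 in clone L and between 0.932 and 0.964 in the others. Vim was almost free of methylation everywhere, at 0.0180 in clone L and between 0.00236 and 0.00629 in the others. The pan-leukocyte gene Ptprc had 0.721 in clone L and between 0.708 and 0.854 in the others, and the endothelial gene Pecam1 had 0.812 in clone L and between 0.829 and 0.888 in the others. Epcam, which marks epithelial cells, stood at 0.131 in clone L and between 0.151 and 0.208 in the others; promoter methylation alone does not show which of these genes are expressed.

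Sele, which encodes E-selectin, an adhesion molecule that activated endothelium presents to leukocytes, was apart below with a close set of other clones. Its level was 0.419 in clone L, against 0.70 in clone E, 0.715 in clone I, 0.657 in clone K, 0.679 in clone P and 0.660 in clone T. Clone L lay 0.239 under clone K, while the 5 others spanned 0.0578. The mean difference was -0.264 (others 0.682 ± 0.0252, SD over 5 clones; limma adjusted p = 0.156, between 0.0636 and 0.353 over the alternatives). Selp, for P-selectin, had 0.554 in clone L inside a range of 0.418 to 0.579. The 250 bases before the Sele start, at chr1:164047984-164048233 on the plus strand of GRCm38.p6, hold 1 CpG, in capitals, and 92.1% of all RefSeq windows of this length hold 1 or more.
Sele: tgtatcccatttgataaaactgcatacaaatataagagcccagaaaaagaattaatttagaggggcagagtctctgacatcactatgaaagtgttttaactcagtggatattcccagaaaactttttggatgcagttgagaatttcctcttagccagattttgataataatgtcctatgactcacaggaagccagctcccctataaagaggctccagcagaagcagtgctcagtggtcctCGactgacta

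Promoters on chromosome X, some of them of testis genes, were another group among those apart below. Of the 30, 8 were on chromosome X (26.7%, against 4.17% of all promoters). The share was not particular to this direction, as 2 of the 7 promoters apart above were on chromosome X too (28.6%). Magea1, of the MAGE family of antigens that are normally restricted to germ cells, had 0.333 in clone L, against 0.789 in clone E, 1.0 in clone I, 0.875 in clone K, 0.727 in clone P and 0.941 in clone T. Slx, a spermatid gene, had 0.0392 in clone L, against 0.391 in clone E, 0.382 in clone I, 0.474 in clone K, 0.579 in clone P and 0.308 in clone T. Rhox3h, of a homeobox family active in reproductive tissue, had 0.567 in clone L and between 0.80 and 0.962 in the others. All 6 levels of Magea1, and 4 and 5 of those of Slx and Rhox3h, equal a fraction with a denominator of at most 30, as few reads or sites would give, so single levels here may be imprecise.

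Gm14474, a predicted gene on chromosome X, was the only promoter that limma called lower in clone L (1 of 21965, 0.00455%). Its level was 0.50 in clone L, against 0.90 in clone E, 1.0 in clone I, 0.909 in clone K, 0.875 in clone P and 1.0 in clone T, for a difference of -0.437 (limma adjusted p = 0.0379). All 6 levels again equal small fractions. Without clone E, I, K or T the call was lost (limma adjusted p between 0.0741 and 0.152), and without clone P it stood at 0.0315. Over the whole chromosome the X promoters averaged 0.444 in clone L and 0.490 ± 0.0204 in the others (SD, n = 5 clones), with all 5 above clone L; the exact permutation p over which of the 6 clones is set apart was 0.167, the smallest that 6 clones allow.

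Odorant receptor genes made up 8 of the 30 promoters apart below (26.7%; olfactory and vomeronasal receptors are 6.27% of all promoters). These genes are expressed in sensory neurons of the nose and lack CpG islands. Olfr389 had the widest gap of them, with 0.0784 in clone L, against 0.50 in clone E, 0.417 in clone I, 0.452 in clone K, 0.444 in clone P and 0.50 in clone T. Olfr592 had 0.362 in clone L, against 0.593 in clone E, 0.612 in clone I, 0.573 in clone K, 0.626 in clone P and 0.582 in clone T. In both, the other clones lay together and clone L alone was lower. At Olfr389, 4 of the 6 levels equal small fractions, so they may be imprecise. Olfr172 and Olfr173, both on chromosome 16, stood at 0.238 and 0.285 in clone L, with the lowest other clone at 0.459 and 0.507. Olfr171, on the same chromosome, had 0.127 in clone L, inside a range of 0.124 to 0.336. Of all 1378 receptor promoters, 640 lay below all 5 other clones (46.4%, against 35.9% of all promoters) and 39 above (2.83%, against 7.48%). The median difference was -0.0732, against -0.0204 over all, and -0.0351 on centred levels, against 0.0178 over all.

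Further promoters apart below belong to genes of other tissues. Rgs13 and Rgs1, regulators of G-protein signalling that are prominent in lymphocytes, are both on chromosome 1. Rgs13 had 0.458 in clone L and between 0.674 and 0.803 in the other clones, and Rgs1 had 0.561 in clone L and between 0.770 and 0.905 in the others. Of 2 further family members on chromosome 1, Rgs2 had 0.531 in clone L and between 0.605 and 0.834 in the others. Rgs18 had 0.557 in clone L, inside a range of 0.530 to 0.847. C9, a component of the complement attack complex, had 0.480 in clone L and between 0.712 and 0.775 in the others. Muc13, an epithelial membrane mucin, had 0.481 in clone L and between 0.682 and 0.767 in the others. Gfral, the brainstem receptor of Gdf15, had 0.310 in clone L and between 0.570 and 0.695 in the others.

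Phyhipl had 2 promoters in the table, and clone L was the lowest at both, by a wide gap at promoter 1 and a narrow one at promoter 2. Promoter 1 stood at 0.287 in clone L, against 0.550 in clone E, 0.604 in clone I, 0.609 in clone K, 0.646 in clone P and 0.656 in clone T. Promoter 2 stood at 0.927 in clone L and between 0.945 and 0.963 in the others. The mean difference at promoter 1 was -0.326 (limma adjusted p = 0.156), and at promoter 2 it was -0.0284. The table does not say which transcript each row belongs to.

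**Figure D1:**
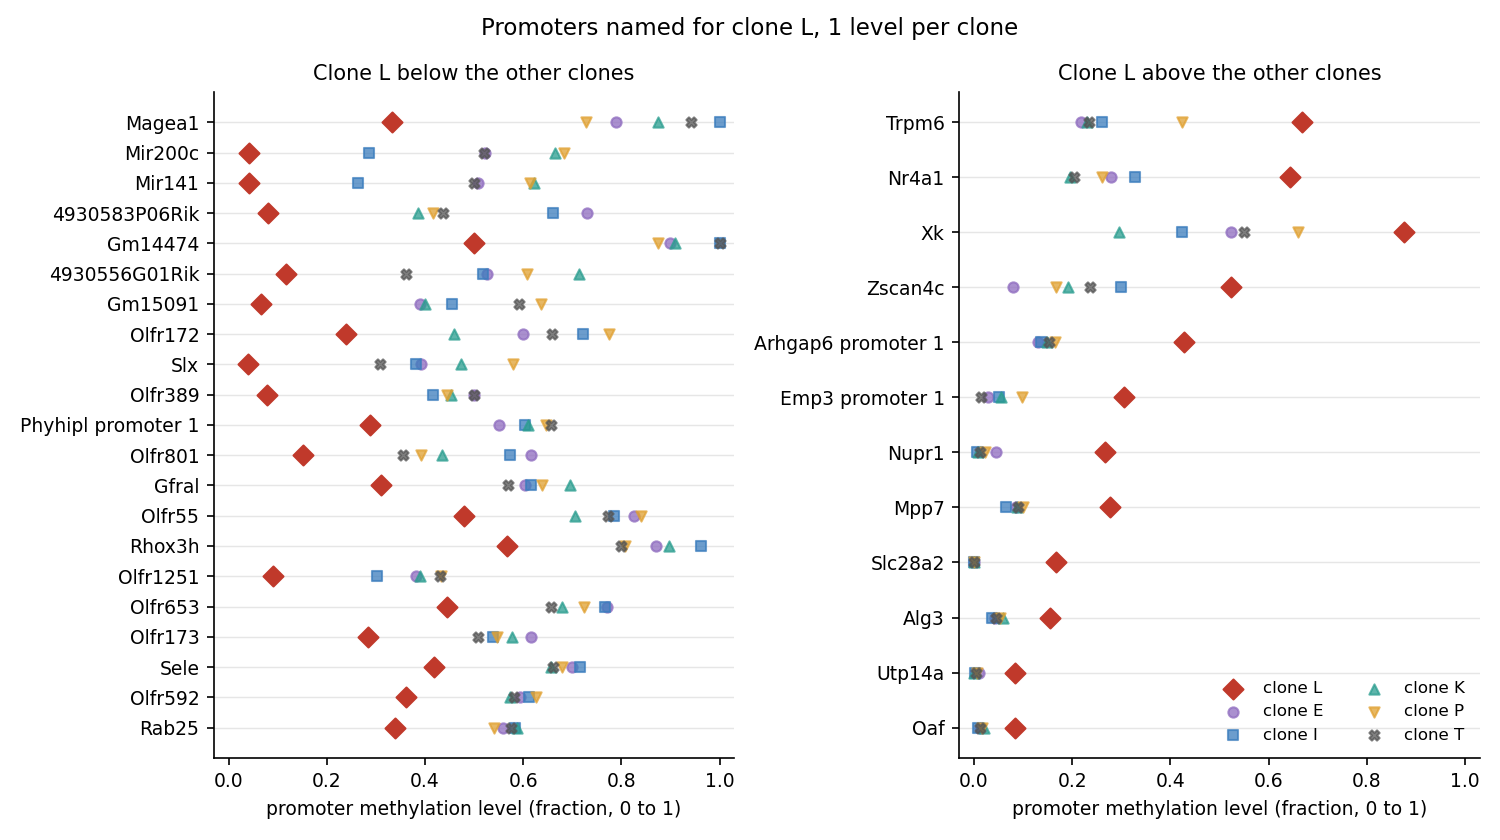
Methylation level (fraction, x axis) of 33 promoters of clone L that were apart or called, 1 point per clone; red diamonds are clone L and the other symbols clones E, I, K, P and T. In the left panel clone L lies at least 0.2 below every other clone (Mir200c, 0.0409 in clone L and 0.286 or more in the others), and in the right panel it lies above them (Nr4a1, 0.644 in clone L and at most 0.328 in the others).

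Where clone L was more methylated, the widest gap was at Nr4a1, an orphan nuclear receptor and immediate-early gene that cells induce within minutes of a stimulus. Its promoter stood at 0.644 in clone L, against 0.279 in clone E, 0.328 in clone I, 0.196 in clone K, 0.261 in clone P and 0.204 in clone T. Clone L lay 0.316 above clone I, and the other 5 clones spanned 0.132. The mean difference was 0.390 (others 0.254 ± 0.0546, SD over 5 clones; limma adjusted p = 0.156). The adjusted p was 0.00619 when each clone was centred on its median and 0.0224 when promoters with a range under 0.1 were left out, and it lay between 0.0987 and 0.384 under the other alternatives, the highest on the logit scale.

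No other promoter of the immediate-early list was apart above. The paralogue Nr4a3 had 0.805 in clone L and between 0.844 and 0.885 in the others, and Nr4a2 promoter 1 had 0.0556 in clone L inside a range of 0.0329 to 0.115. Of 30 immediate-early and NR4A promoters, 4 lay above all 5 others (13.3%, against 7.48% of all) and 5 below (16.7%, against 35.9%), with a median difference of -0.00130, against -0.0204 over all. On centred levels the median was 0.0369, against 0.0178 over all, and 19 of the 30 lay above all 5 (63.3%, against 32.4%) and 2 below (6.67%, against 14.4%). The Nr4a1 start is rich in CpG: the 250 bases before it, at chr15:101266596-101266845 on the plus strand of GRCm38.p6, hold 34, in capitals, a number that 3.53% of RefSeq windows reach.
Nr4a1: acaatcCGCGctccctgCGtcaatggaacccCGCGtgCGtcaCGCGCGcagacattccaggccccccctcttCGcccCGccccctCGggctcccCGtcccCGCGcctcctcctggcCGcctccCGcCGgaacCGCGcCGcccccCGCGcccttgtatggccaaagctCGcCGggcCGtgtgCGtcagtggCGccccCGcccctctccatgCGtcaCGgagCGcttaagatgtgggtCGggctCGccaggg

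Nupr1, a small chromatin-associated protein induced by cell stress, was partly methylated in clone L and almost free of methylation in each of the other clones. Its promoter had 0.267 in clone L, against 0.0453 in clone E, 0.00551 in clone I, 0.00855 in clone K, 0.0233 in clone P and 0.0125 in clone T. The difference was 0.248 (others 0.0190 ± 0.0161, SD over 5 clones; limma adjusted p = 0.00130). The call held with each other clone left out in turn (at most 0.0179) and on centred levels (0.00146), and was lost on the arcsine scale (0.0668), the logit scale (0.384) and with no mean trend (0.164). Of the 24 promoters of a stress-response list, 4 lay above all 5 others (16.7%, against 7.48% of all) and 6 below (25%, against 35.9%). Besides Nupr1 these were Trib3, Herpud1 and Chac1, which differed from the mean of the others by 0.0399, 0.0356 and 0.0340. The 250 bases before the Nupr1 start, at chr7:126625471-126625720 on the minus strand of GRCm38.p6, hold 6 CpG, in capitals, and 50.4% of RefSeq windows hold as many or more.
Nupr1: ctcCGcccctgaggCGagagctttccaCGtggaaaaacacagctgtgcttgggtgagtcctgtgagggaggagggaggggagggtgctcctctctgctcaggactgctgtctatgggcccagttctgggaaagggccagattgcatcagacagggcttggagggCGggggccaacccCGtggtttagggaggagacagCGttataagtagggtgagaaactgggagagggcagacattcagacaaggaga

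Limma called 8 promoters higher in clone L, which is 0.0364% of those tested, and at an unadjusted p under 0.05 there were 331 higher and 2108 lower. Most of the 8 were nearly free of methylation in the other clones. Emp3, a membrane protein of the PMP22 family, had 0.305 at promoter 1 in clone L, against 0.0293 in clone E, 0.0519 in clone I, 0.0548 in clone K, 0.0977 in clone P and 0.0134 in clone T (limma adjusted p = 0.0366). Its promoter 2 was also higher, at 0.463 in clone L and between 0.224 and 0.317 in the others. Arhgap6, a GTPase-activating protein gene on chromosome X, had 0.428 at promoter 1 in clone L, against 0.130 in clone E, 0.136 in clone I, 0.148 in clone K, 0.165 in clone P and 0.154 in clone T (limma adjusted p = 0.0390). Its promoter 2 lay the other way, at 0.806 in clone L and between 0.841 and 0.899 in the others.

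Mpp7, a scaffold protein of cell junctions, had 0.277 in clone L and between 0.0645 and 0.101 in the others (limma adjusted p = 0.0366). Alg3, a mannosyltransferase of N-glycan assembly, had 0.155 in clone L and between 0.0361 and 0.0597 in the others (limma adjusted p = 0.0486). Oaf had 0.0838 in clone L and between 0.00905 and 0.0200 in the others (limma adjusted p = 0.0397). These 3 rose by amounts between 0.0701 and 0.191. Utp14a, which acts in assembly of the small ribosomal subunit, had 0.0832 in clone L and between 0 and 0.0103 in the others (limma adjusted p = 0.0227). The nucleoside transporter gene Slc28a2 was listed at 0.167 in clone L and at 0 in each other clone (limma adjusted p = 1.45e-04), and all 6 levels equal small fractions. Of the 8, Nupr1 and Slc28a2 kept their calls with each clone left out in turn; without clone E, I or T no other promoter was called. On the logit scale 2 promoters were called higher and 0 lower, on centred levels 8 and 3, and with promoters of a range under 0.1 left out 3 and 16.

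The other promoters apart above did not pass limma. Trpm6, a magnesium channel gene, had 0.668 in clone L, against 0.219 in clone E, 0.261 in clone I, 0.230 in clone K, 0.424 in clone P and 0.234 in clone T (limma adjusted p = 0.198). Clone P lay between clone L and the rest there. Xk, a membrane protein gene on chromosome X, had 0.876 in clone L, against 0.523 in clone E, 0.423 in clone I, 0.295 in clone K, 0.660 in clone P and 0.550 in clone T (limma adjusted p = 0.312). Zscan4c, a gene of the early embryo, had 0.524 in clone L and between 0.080 and 0.30 in the others, all 6 levels being small fractions. It belongs to a family of near-identical copies whose reads may be assigned to the wrong copy. At the edge of the rule, Emp3 promoter 1 lay 0.207 above the next clone and Tpbpb, just outside, 0.197.

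Genes of antigen presentation and the interferon response went against the general direction of clone L. Of 37 promoters in this list, 12 lay above all 5 other clones (32.4%, against 7.48% of all promoters) and 4 below (10.8%, against 35.9%), and the median difference was 0.00560, against -0.0204 over all. On centred levels it was 0.0438, against 0.0178 over all, with 20 of 37 above all 5 (54.1%, against 32.4%). Other lists had centred shares of a like size, with 63.3% of immediate-early, 51.4% of colony-stimulating and cytokine, 50.0% of mesenchymal and 50.0% of stress-response promoters above all 5. None of the 37 passed limma, and Tap1, Tap2 and Psmb8 lie together in the MHC on chromosome 17. Tap1, a subunit of the peptide transporter that loads MHC class I, had 0.115 in clone L, against 0.0354 in clone E, 0.0317 in clone I, 0.0569 in clone K, 0.0292 in clone P and 0.0545 in clone T. Its partner Tap2 had 0.192 in clone L, against 0.107 in clone E, 0.0798 in clone I, 0.109 in clone K, 0.104 in clone P and 0.0852 in clone T. In both the other clones lay close together and clone L above them. B2m, the light chain of MHC class I, had 0.0867 in clone L and between 0.00879 and 0.0609 in the others, and the immunoproteasome subunit gene Psmb8 had 0.182 in clone L and between 0.0454 and 0.148 in the others. Isg15, an interferon-induced ubiquitin-like protein, had 0.484 in clone L and between 0.217 and 0.419 in the others. Mx2, an interferon-induced antiviral GTPase, had 0.371 in clone L and between 0.206 and 0.247 in the others. The 4 that lay below included the class I heavy-chain gene H2-D1, with 0.299 in clone L and between 0.353 and 0.429 in the others, and Nlrc5, the class I transactivator, with 0.764 in clone L and between 0.812 and 0.869 in the others.

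The promoters of a germline list and of HOX genes, most of them highly methylated, were mostly lower in clone L by small amounts. All 35 promoters of a germline list lay under the mean of the other clones and 23 under all 5 (65.7%, against 35.9% of all promoters), with a median difference of -0.0476. On centred levels the median was -0.00939 and 12 lay below all 5 (34.3%, against 14.4%). Piwil4, a piRNA-binding protein gene, had 0.636 in clone L and between 0.764 and 0.807 in the others, and the meiotic gene Sycp2 had 0.788 in clone L and between 0.858 and 0.893 in the others. Of 39 HOX promoters, 27 lay below all 5 (69.2%) and 1, Hoxa13, above, with a median difference of -0.0507 that was -0.0125 on centred levels. Hoxb13 showed the widest HOX difference, at 0.552 in clone L and between 0.642 and 0.771 in the others. Hoxa13 stood at 0.570 in clone L and between 0.396 and 0.511 in the others. None of the promoters on the germline or HOX list was apart or passed limma. Magea1 and Slx, germ-cell genes outside that list, were apart below, as given above.

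The low mean of clone L came from promoters of intermediate and high level. Over all 21965 promoters the mean level was 0.369 in clone L and 0.40 ± 0.0133 in the other clones (SD, n = 5 clones), a difference of -0.0307 with all 5 above clone L (exact permutation p over which of the 6 clones is set apart = 0.167, the smallest 6 clones allow). Promoters under 0.1 in the others differed by -0.00173 on average and gave 1.35% of the summed difference, although they are 23.9% of promoters. Promoters at 0.1 to 0.3 differed by -0.0151 and gave 11.6%. Those at 0.3 to 0.5 differed by -0.0427 and gave 17.7%. The widest difference was at 0.5 to 0.7, where the mean was 0.541 in clone L and 0.605 in the others, -0.0637, and this class gave 30.9%. Promoters at 0.7 to 0.9 differed by -0.0519 and gave the most, 33.8%, being more numerous. Those at 0.9 and over differed by -0.0294 and gave 4.60%. The classes from 0.5 to 0.9 thus held 64.7% of the summed difference with 34.9% of the promoters.

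Within these classes clone L was often the lowest of the 6. It lay below all 5 others at 18.3% of promoters under 0.1, at 50.2% of those at 0.5 to 0.7, at 54.8% of those at 0.7 to 0.9 and at 59.0% of those at 0.9 and over. Over all promoters the share was 35.9% below all 5 and 7.48% above all 5, and on levels centred on each clone's median it was 14.4% below and 32.4% above. Clone T, set against its own 5 others, had nearly the same differences as clone L under 0.3 (-0.00164 and -0.0149) and smaller ones above, -0.0334 at 0.3 to 0.5, -0.0400 at 0.5 to 0.7 and -0.0316 at 0.7 to 0.9. Clone T was below all 5 of its others at 24.6% of promoters, and each of clones E, I, K and P at 7.19% to 14.3%.

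**Figure D2:**
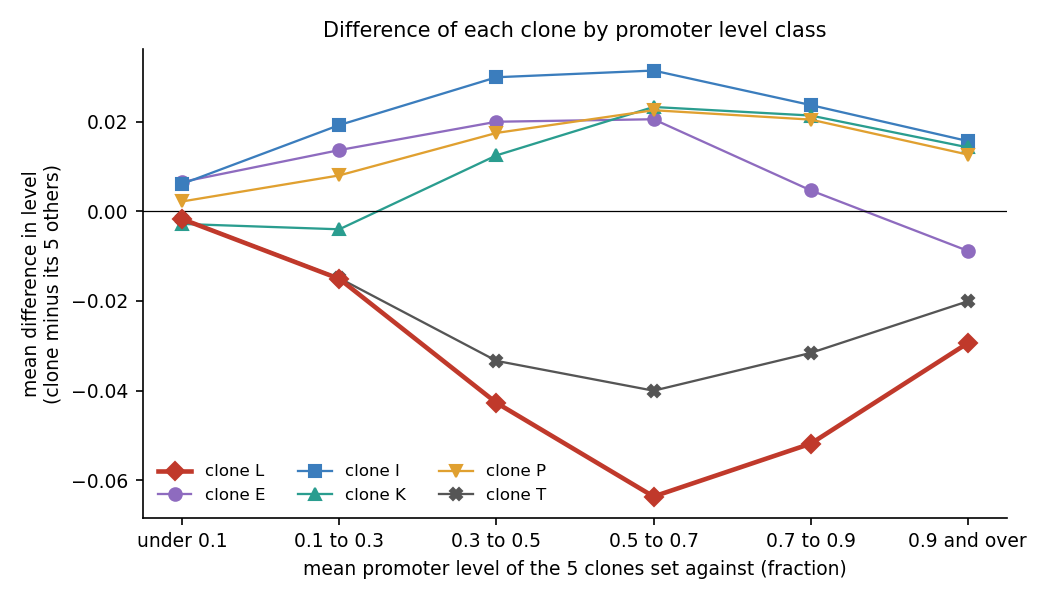
Mean difference in promoter level (y axis, fraction) of each clone from the mean of its 5 others, by the level of those 5 (x axis); red diamonds are clone L. Clone L dips to -0.0637 at levels of 0.5 to 0.7, clone T dips to -0.0400 there, and both lie near 0 under 0.1.

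The difference of clone L also went with the CpG content of the promoter, a property that the levels did not enter. CpG dinucleotides were counted in the 300-base RefSeq window around the gene start, for the 16810 promoters with such a window. Where a gene had several windows, the counts were averaged, and each promoter of the gene was given that mean. At 0 to 2 CpG the mean level was 0.381 in clone L and 0.451 ± 0.0220 in the others (SD, n = 5 clones), a difference of -0.0694 with all 5 above clone L (exact permutation p = 0.167, the smallest possible). At over 20 CpG it was 0.227 in clone L and 0.234 ± 0.00825 in the others, a difference of -0.00800 with 4 of 5 above clone L (exact permutation p = 0.50). Between these the difference was -0.0565 at over 2 to 5 CpG, -0.0402 at over 5 to 10 and -0.0170 at over 10 to 20. Clone T differed by -0.0328 at 0 to 2 CpG and by -0.0116 at over 20.

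The order held among promoters of like level. Where the other clones averaged 0.5 to 0.7, clone L differed by -0.0934 at 0 to 2 CpG, by -0.0646 at over 5 to 10 and by -0.0170 at over 20. Of the 30 promoters apart below, 21 had a CpG count, with a median of 2 against 14 over all promoters. Of these 21, 15 had 0 to 2 CpG (71.4%, against 15.8% of all promoters with a count). The 7 apart above had a median of 9. A promoter can be apart below only where the other clones are at 0.2 or more, as at 12247 promoters. The background shares given here, and those for chromosome X and the odorant receptors, were not restricted to these.

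**Figure D3:**
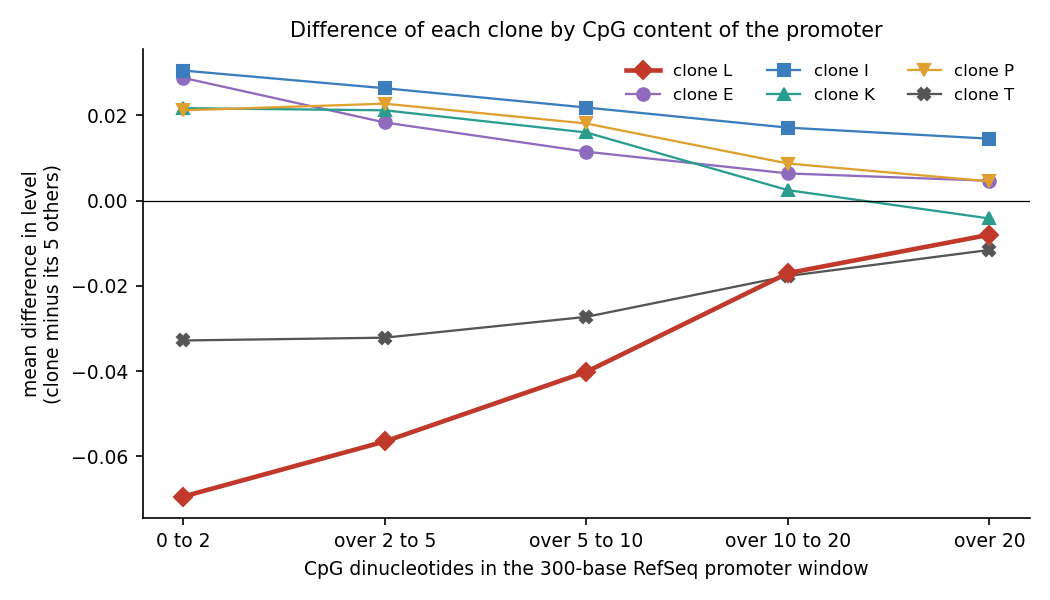
Mean difference in promoter level (y axis, fraction) of each clone from its 5 others, by the number of CpG dinucleotides in the RefSeq window (x axis); red diamonds are clone L. Clone L lies at -0.0694 at 0 to 2 CpG and at -0.00800 at over 20, where clone T, at -0.0116, is lower.

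In HMRs, clone L was lower in long regions and higher in short ones. Over the 97247 autosomal HMRs the mean level was 0.111 in clone L and 0.162 ± 0.0265 in the others (SD, n = 5 clones), with all 5 above clone L (difference -0.0513; exact permutation p = 0.167, the smallest possible). Clone E lay nearly as far the other way, 0.0496 above the mean of its own 5 others. Clone L lay below all 5 others in 25.9% of autosomal HMRs and above all 5 in 4.76%. On levels centred on each clone's mean these shares were 15.2% and 31.5%. In HMRs of 2 kb or more it was 0.110 in clone L and 0.173 ± 0.0294 in the others. In HMRs under 1 kb the order turned, with 0.186 in clone L and 0.138 ± 0.0160 in the others and none of the 5 above clone L (difference 0.0477; exact permutation p = 0.167). The turn lay at 1 to 2 kb, where clone L had 0.0889 and the others between 0.0641 and 0.0885. In the 34655 HMRs of 5 to 10 kb, clone L had 0.112, against 0.228 in clone E, 0.199 in clone I, 0.174 in clone K, 0.182 in clone P and 0.137 in clone T. In the 2722 HMRs of 0.5 to 1 kb it had 0.164, against 0.120 in clone E, 0.129 in clone I, 0.125 in clone K, 0.121 in clone P and 0.0912 in clone T.

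Clone T, the nearest to clone L in long HMRs, was thus the farthest from it in short ones. Levels of HMRs are coarse: 29.8% of autosomal HMRs were listed at 0 in clone L, and of the levels above 0 in clone L 56.2% equal a fraction with a denominator of at most 30, against 5.27% of its promoter levels. The sources used here do not give how a level was averaged over an HMR or in which lines the HMRs were found.

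**Figure D4:**
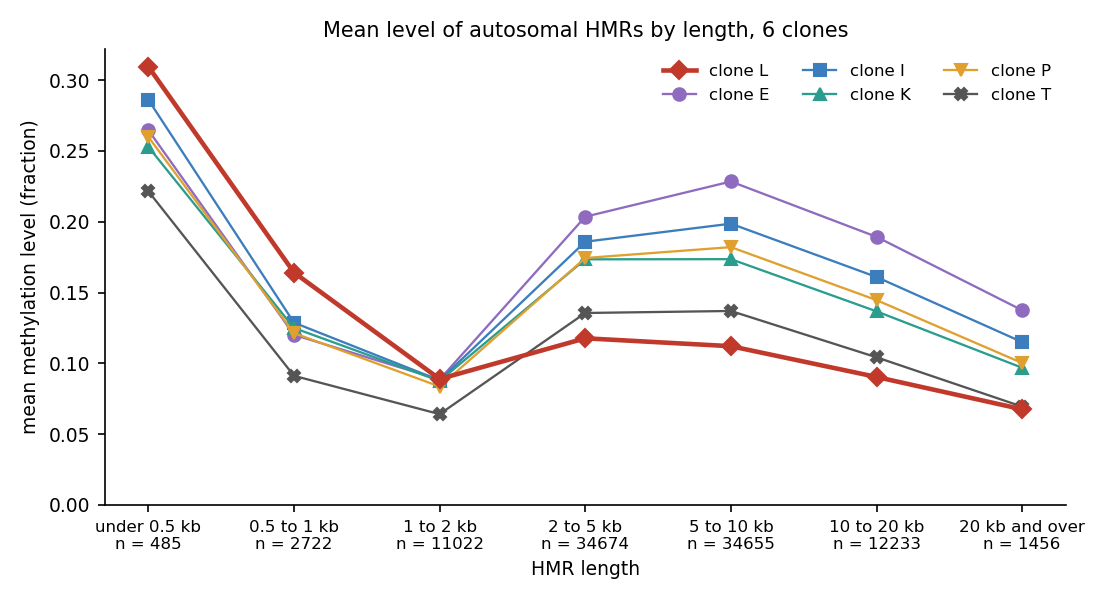
Mean methylation level (y axis, fraction) of autosomal HMRs in the 6 clones by HMR length (x axis, with the number of HMRs in each class); red diamonds are clone L. Clone L is highest under 0.5 kb (0.310) and at 0.5 to 1 kb (0.164), and lowest in every class from 2 kb up.

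The 849 HMRs apart below were middle-sized, with a median length of 5334 bp against 4974 bp over all, and a median level of 0.162 in clone L and 0.499 in the others. Clone L was listed at 0 in 68 of them. The same rule gave 297 HMRs for clone T, 98 for K, 57 for P, 38 for I and 32 for E, each against its own 5 others. The widest gap was in an HMR on chromosome 12 from 16359732 to 16367201, with 0.167 in clone L, against 0.75 in clone E, 0.75 in clone I, 0.714 in clone K, 0.769 in clone P and 0.80 in clone T. An HMR on chromosome 9 from 23271633 to 23278706 had 0.146 in clone L, against 0.694 in clone E, 0.745 in clone I, 0.652 in clone K, 0.678 in clone P and 0.632 in clone T. In both, the other clones were at 0.632 or more and clone L was at the level usual for an HMR. The next HMR in the table on chromosome 9, from 23301724 to 23316475, was also apart, with 0.176 in clone L and between 0.50 and 0.636 in the others. The coordinates, taken unchanged from the deposited table, run past the end of chromosome 7 of mm10, the build named in the submitters' processing notes, so their build was not established and no gene was assigned.

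Limma called 33 of the 97247 autosomal HMRs lower (0.0339%) and 1244 higher (1.28%), and at an unadjusted p under 0.05 there were 5105 lower and 2337 higher. Of the 33 called lower, 26 were also apart, with a median level of 0.113 in clone L and 0.385 in the others. Of the 1244 called higher, 1159 were listed at 0 in all 5 other clones, and their median level in clone L was 0.075. On the logit scale 374 were called lower and 1179 higher, on centred levels 0 and 315, and among HMRs above 0 in all 6 clones none was called in either direction, with 4069 at an unadjusted p under 0.05. The HMR of the widest gap, on chromosome 12, had a limma adjusted p of 0.978, against 0.00229 with no mean trend and between 0.394 and 1 under the other alternatives. On simulated data the fit missed most shifted HMRs and called some unchanged ones, so these counts are rough.

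Chromosome 10 held more of the HMRs apart below than any other. It had 114 of 3235 (3.52%), against 0.873% over all autosomes. Counting HMRs in which all 5 others were at 0.2 or more, and in which clone L could therefore be apart, the share was 12% of 950 on chromosome 10, between 2.49% and 8.09% on each other autosome, and 4.87% over all 17437. The mean level of chromosome 10 HMRs was 0.118 in clone L, against 0.274 in clone E, 0.221 in clone I, 0.189 in clone K, 0.192 in clone P and 0.167 in clone T. Of windows of 5 Mb, the one from 90 to 95 Mb on chromosome 10 held the most HMRs apart, 17 of 168. The next count, 15, was shared by windows on chromosome 10 from 45 to 50 Mb (15 of 48) and from 110 to 115 Mb (15 of 181), on chromosome 16 from 40 to 45 Mb (15 of 129) and on chromosome 3 from 145 to 150 Mb (15 of 144). In the chromosome 10 window from 45 to 50 Mb the mean was 0.156 in clone L, against 0.497 in clone E, 0.478 in clone I, 0.322 in clone K, 0.40 in clone P and 0.372 in clone T. Over all autosomes, chromosome 10 included, clone L lay under the mean of the others in 488 of 504 windows (96.8%).

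**Figure D5:**
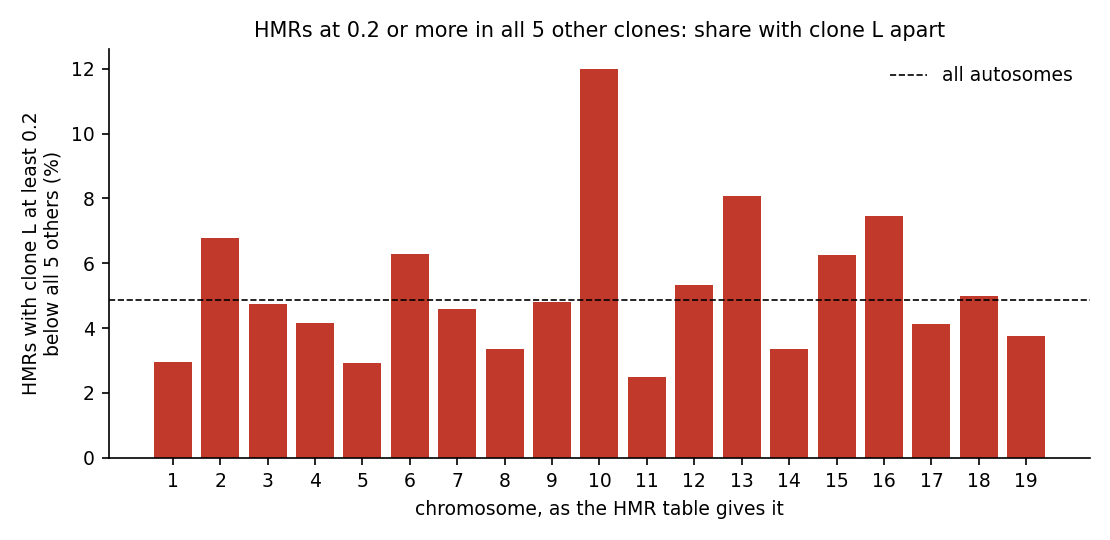
Share of autosomal HMRs (y axis, %) in which clone L lay at least 0.2 below all 5 other clones, among HMRs at 0.2 or more in all 5 others, by chromosome (x axis); the dashed line is the share over all autosomes, 4.87%. Chromosome 10 stands at 12% and the other autosomes between 2.49% and 8.09%.

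The 380 HMRs apart above were short, with a median length of 1192 bp, and 303 of them were under 2 kb. Their median level was 0.467 in clone L and 0.0695 in the others, and all 5 others were listed at 0 in 121. The same rule gave 1295 for clone E, 374 for I, 251 for K, 167 for P and 67 for T. An HMR on chromosome 3 from 57975287 to 57976385 had 0.806 in clone L, against 0.108 in clone E, 0.125 in clone I, 0.0333 in clone K, 0.10 in clone P and 0 in clone T (limma adjusted p = 0.00554). An HMR on chromosome 4 from 155335962 to 155336675 was listed at 0.70 in clone L and at 0 in the other 5. The longest was on chromosome 11 from 7697537 to 7713857, 16320 bp, with 0.699 in clone L, against 0.333 in clone E, 0.283 in clone I, 0.250 in clone K, 0.281 in clone P and 0.111 in clone T (limma adjusted p = 0.176). On levels centred on each clone's mean, 368 autosomal HMRs were apart below and 573 above, and 12 and 11 promoters; the 12 promoters, Sele among them and Mir200c and Rab25 not, were all among the 30, and all 7 promoters apart above remained.

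Clone T was the clone most like clone L. The mean absolute difference from clone L was 0.0443 over promoters and 0.0640 over autosomal HMRs for clone T. For the other 4 clones it lay between 0.0546 and 0.0591 over promoters and between 0.0820 and 0.107 over HMRs. Clone T carries the intravasating label and clone L the non-intravasating one, so the clones nearest in methylation had different labels. At 55.9% of promoters clone L was still lower than clone T. Leaving clone T out raised the promoters apart below to 74 and the autosomal HMRs apart below to 2001. Clone T was the lowest of the others at 10 of the 30 promoters (33.3%, against 40.5% of all promoters) and at 275 of the 849 HMRs.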

How the data were processed

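Per the labels' protocols, genomic DNA was sheared to about 300 bp, ligated to methylated adapters, bisulfite converted and sequenced as 76 nt paired-end reads. The deposited methylation levels are fractions from 0 to 1, 1 per clone and region, with no counts. Per the submitters' processing notes bedtools, DESeq and mm10 were used, with no role stated; the sources used here do not give the aligner, promoter boundaries, HMR caller, way of averaging or combination of the 2 rounds. Many HMR levels equal 1 over a small whole number, so small differences between HMRs are coarse. Whether few reads, few sites or the way of averaging gave such levels was not tested.

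Of 22110 promoter rows, 145 repeats of the same gene and levels were dropped. Of the gene names, 18885 matched RefSeq (GRCm38.p6) by symbol and 1343 by synonym, and 115 had no match; 249 promoters share all levels with another gene. Clone L was set against the 5 other clones on the levels as deposited, with no filter on low values, with limma 3.58.1 in R 4.3.3 (mean trend, Benjamini-Hochberg adjusted p under 0.05, fitted over all promoters or all HMRs). The spread comes from the 5 others, and clone L, a lone sample, is assumed to vary like them. Tested on simulated data, the fit missed most of the smaller shifts at promoters and most shifts at HMRs, and called some unchanged HMRs, so a region that was not called is not shown to be alike in the clones. Means were compared by an exact two-sided permutation test over which of the 6 clones is set apart, which cannot go below 0.167. Each clone is 1 line with 1 value, so p-values measure only the spread between these lines.

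The members and gene lists were chosen with earlier results of these data known. Named promoters were the 5 named in advance for clone L (Mir200c, Rab25, Sele, Nr4a1 and Nupr1), up to 12 per direction that limma called, filled up by the gap to the nearest clone, and list members that were called or apart; others named were picked after their values were seen. Named HMRs were the 5 of widest gap and the 5 longest that were apart, per direction. Alternatives covered the scale, trend, centring, filters, chromosomes, thresholds and leaving out each other clone.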

Additional observations from a re-analysis of the deposited data

Results flagged for a closer look

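In 2 of 55 results looked at, 1 of the 5 clones set against clone L stood apart from the other 4 by Dixon's test at the 95% level, which chance flags in about 1 in 20 groups. At the Trpm6 promoter clone P had 0.424, against 0.261 for the nearest of the others, so the mean of the 5 that clone L is set against depends on clone P. For the mean promoter level clone T had 0.377, against 0.402 for the nearest of the others. Without clone T the mean promoter difference of clone L was -0.0364, against -0.0307 with it.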

How the results depend on the processing

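The mean promoter level of clone L stayed below the mean of the other clones under every alternative run (-0.0382 to -0.0278), and so did the mean autosomal HMR level (-0.0916 to -0.0431); leaving out each other clone gave -0.0364 to -0.0278 and -0.0611 to -0.0431. With all chromosomes counted, or without clone I, K or P, another clone lay farther from its own others in mean HMR level. No named promoter or HMR changed direction. The counts of limma calls moved most. In place of 9 promoters, 2 were called on logits, 1 on arcsines, 0 with no mean trend (2745 at an unadjusted p under 0.05), 19 with promoters of a range under 0.1 left out, 4 on autosomes alone and 2 to 7 with each other clone left out (2 without E, I or T, 3 without K). In place of 1277 HMRs, 315 were called on centred levels, 9 with HMRs of a range under 0.1 left out, 0 with HMRs listed at 0 in any clone left out (4069 unadjusted) and 1426 to 1955 with each other clone left out (1955 without E). Promoters apart numbered 37, and 605 at a gap of 0.1, 6 at 0.3, 23 on centred levels and 47 to 84 with each other clone left out (56 without P, 84 without T). HMRs apart numbered 1229, and 6582 at a gap of 0.1, 251 at 0.3 and 1360 to 2404 with each other clone left out (2404 without T). Fewer clones to lie beyond raise the counts of those apart by construction; for the other moves the cause was not tested. Leaving out promoters at which at least 3 levels equal small fractions, a choice made after seeing the data, left 27 apart. With depth unknown, levels that equal small fractions limit single promoters and HMRs. No paired analysis was possible because the deposited columns do not carry the rounds.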

Other observations

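Other gene groups lay at different distances in clone L. Of 25 leukocyte-marker promoters, 14 lay below all 5 other clones (56.0%, against 35.9% of all promoters), with a median difference of -0.0660 that was -0.0279 on centred levels. Itgax, an integrin of dendritic cells, had 0.541 in clone L and between 0.665 and 0.797 in the others. Of 93 keratin and keratin-associated promoters, 47 lay below all 5 (50.5%), and Krtap5-1 lay above them, at 0.589 in clone L and between 0.162 and 0.486 in the others. Of 28 housekeeping promoters, 6 lay below all 5 (21.4%) and 3 above (10.7%, against 7.48% of all promoters). The median difference was -0.00558, against -0.0204 over all, and 0.0326 on centred levels, against 0.0178 over all.

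Among 570 microRNA promoters, 232 lay below all 5 other clones (40.7%, against 35.9% of all promoters) and 25 above (4.39%, against 7.48%). After Mir200c and Mir141 the widest gap below was at Mir135a-2, with 0.482 in clone L and between 0.664 and 0.763 in the others. The clustered Mir181a-1 and Mir181b-1 had 0.606 each in clone L, with the others between 0.784 and 0.842 and between 0.776 and 0.835. None of these passed limma. Of 26 promoters of the DNA methylation machinery, 6 lay below all 5 (23.1%, against 35.9%) and 2 above (7.69%, against 7.48%), and none was apart.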
